A study of Homo sapiens with 6 samples.

Results

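Acetylation of histone H4 (H4ac) was compared directly between the libraries of 2 hairpins against TIP60, shTIP60-B and shTIP60-C, at the peaks of the control library. TIP60, encoded by KAT5, is the catalytic subunit of the NuA4 acetyltransferase complex and acetylates the tails of histones H4 and H2A. The mark lies at active promoters and enhancers, where acetylated lysines loosen nucleosomes and are bound by bromodomain proteins. With 2 hairpins against 1 gene, the direct comparison asks where the 2 knockdown libraries differ from each other, without a control library in the ratio.

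The cells were H1975, an established non-small cell lung cancer line, in which the hairpins are inducible and a control hairpin, shControl, was used alongside. The cells of all 3 hairpins, the control included, had 2 days of 0.5 ug/ml doxycycline before 10 min of crosslinking, so the drug is shared by every group. The series holds 6 libraries, H4ac and input for each hairpin, each group being 1 library. The read counts used here are those of the 3 H4ac libraries, and the inputs are not analysed here. The degree of TIP60 knockdown with either hairpin is not measured in these files, and the mark at KAT5 is no measure of it. Markers were read at control peaks within 1 kb of the start site with at least 50 reads in the 2 knockdown libraries together. Weaker peaks were not counted. Epithelial identity was visible at 5 of 7 markers with such a peak (EPCAM, CDH1, KRT8, KRT18, KRT19), while the lung markers NKX2-1 and SFTPB had none. No such peak was found at any of 5 haematopoietic markers, and 1 of 5 fibroblast or endothelial markers (COL1A1) and 1 of 3 neuronal markers (SYT1) had one.

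Both deposited tables listed the same 36034 control peaks, with equal control counts at all of them, among 93810 distinct regions in the series. Of these peaks, 30656 (85.1%) had at least 50 reads in shTIP60-B plus shTIP60-C and were compared, 11376 within 1 kb of a start site (promoter regions) and 19280 farther away (distal regions). The other 5378 had fewer reads. At the edge of that minimum, regions with exactly 50 reads had a median genome-centred log2 ratio of 0.06 and those with 49 reads one of -0.03. Over all matched peaks, shTIP60-B had 2842710 reads, shTIP60-C 6746689 and shControl 3638815. The median compared region held 50, 118 and 64 reads in that order, and 0.425 shTIP60-B reads per shTIP60-C read. That ratio was set to 0 on the log2 scale, and each value was then also centred on the median of its 10 Mb window. The 2173 regions in windows with fewer than 50 regions kept their genome-centred value, among them those of TOR4A, SAMMSON and NUDT12. All ratios below are window-centred log2 ratios of shTIP60-B over shTIP60-C unless named genome-centred. Brackets hold 95% Clopper-Pearson counting intervals, which cover counting error only. With 1 library a side no test is possible, and each difference is one between these libraries, not between hairpins or conditions. Coordinates of regions are on hg19.

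A fold of 2 or more separated the libraries at few regions. shTIP60-B was lower at 1557 regions (5.08%) and higher at 994 (3.24%). Genome-centred, these were 1908 (6.22%) and 1164 (3.8%). Among distal regions 1252 (6.49%) were lower and 824 (4.27%) higher. Among 10312 genes measured at their promoter, of 10775 with a control peak there, 245 (2.38%) were lower and 126 (1.22%) higher in shTIP60-B. Genome-centred, 385 (3.73%) and 151 (1.46%) were, and 210 and 99 passed on both scales. Deeper regions passed the fold less often, except that the share of distal regions lower was 1.59% in the class of regions next to the deepest and 2.21% in the deepest. Of distal regions with 50 to 99 reads 9.88% were lower and 7.01% higher, against 2.21% and 0.17% of those with at least 1000 reads. Of the 4883 promoter genes with at least 300 reads, 31 were lower and 8 higher. Ratios to shControl, given below on the genome-centred scale, share that 1 library, on which the peaks were called. At the lower promoter genes the median log2 ratio to shControl was -1.23 for shTIP60-B and 0.11 for shTIP60-C. At the higher genes these medians were 0.81 and -0.42.

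**Figure D1:**
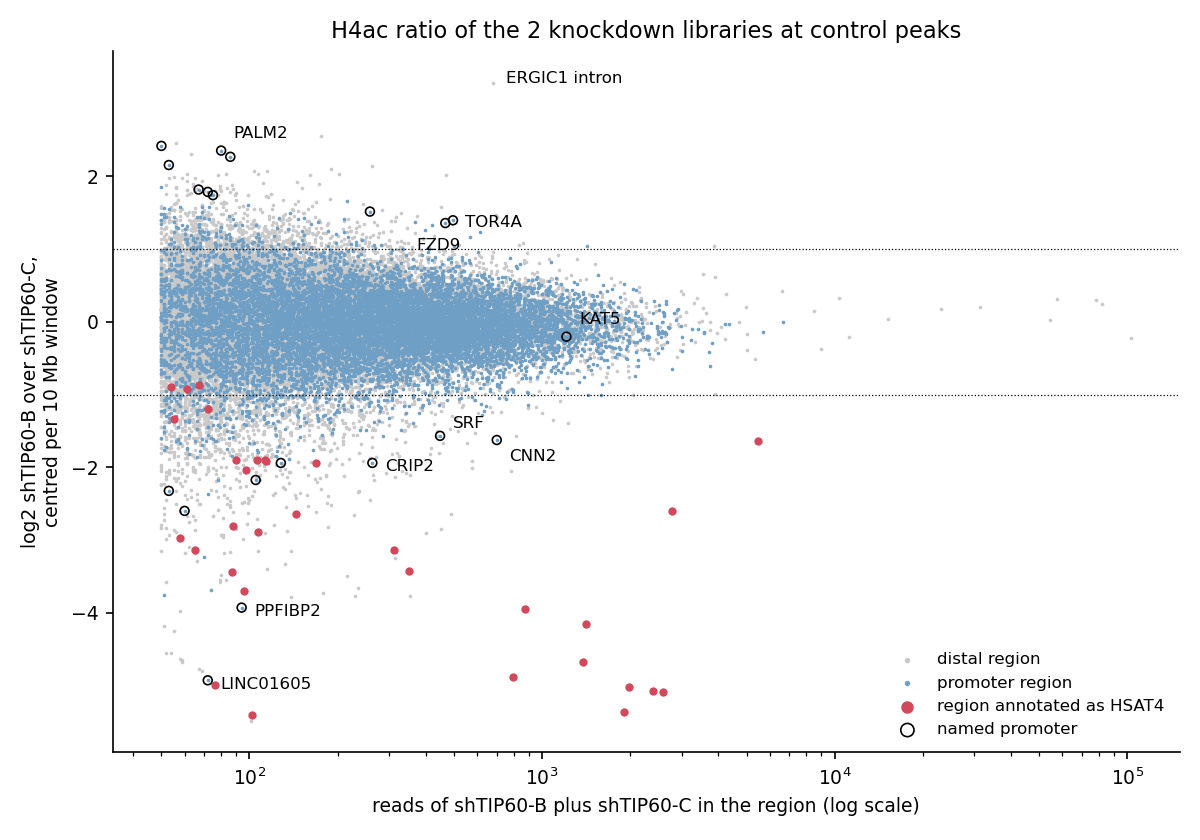
Each point is a control peak, with its reads in both knockdown libraries on a log axis and its window-centred log2 ratio of shTIP60-B over shTIP60-C; dotted lines mark a fold of 2. The spread narrows with depth, and regions annotated as HSAT4 (red) lie below the other regions of like depth, 29 of 32 past the fold.

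The regions that set the libraries furthest apart were copies of a satellite repeat. HSAT4 is annotated in the deposited tables as a centromeric satellite, a tandem repeat of the kind that surrounds centromeres. That class names the repeat and not the position of each copy. The copies measured on chromosome 1 lie at chr1:228716215-228738310. Of 38 listed HSAT4 regions, 32 had enough reads, 6 on chromosome 1, 9 on chromosome 19 and 17 on chromosome X. shTIP60-B was lower by the fold at 29 of them and higher at 0, against the 5.08% and 3.24% of all regions. HSAT4 was picked out after these values were seen, so the counts describe it and test nothing. Over the 32 regions shTIP60-B had 996 reads, shTIP60-C 23090 and shControl 12293. The median ratio was -2.93, and every one of the 32 was below 0, from -5.41 to -0.87. shTIP60-C lay near the control there, at a median log2 ratio of -0.04, and shTIP60-B was apart from both, at -3.03.

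The copies on chromosome X were the most depleted. They held 212 reads in shTIP60-B, 13561 in shTIP60-C and 7233 in shControl, with a median of -4.16 and 17 of 17 past the fold. On chromosome 1 the reads were 672, 7945 and 4049, the median -1.77, and 5 of 6 passed. On chromosome 19 they were 112, 1584 and 1011, the median -1.94, and 7 of 9 passed. The X copies formed most of a stretch of 19 neighbouring regions, chrX:58004033-58279381, all past the fold, with 220 reads in shTIP60-B, 13706 in shTIP60-C and 7296 in shControl. One region inside it, chrX:58129409-58130829, had 0 reads in shTIP60-B, 102 in shTIP60-C and 79 in shControl. With its count set to the floor of 3 reads, shTIP60-B was 14-fold lower, and the nearer bound of the counting interval was -3.48. The 4 distal regions farthest below 0 by their counting interval all lay in this stretch. The lowest of them, chrX:58140301-58147634, had 18, 1890 and 957 reads and a ratio of -5.36 (-6.19 to -4.77). The gene nearest to the stretch is ZXDA, which encodes a zinc finger protein, and its own promoter did not share the difference, with 186, 542 and 306 reads and a ratio of -0.26 (-0.51 to -0.02).

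Most other satellites did not lie on that side. Of 54 regions annotated as any other satellite, 1 was lower and 2 were higher by the genome-centred ratio, and the median of that ratio was 0.33. The 1 lower, chrX:58104647-58105301, is annotated as alpha satellite and lay inside the X stretch. It had 4, 59 and 37 reads, at -2.30 (-4.53 to -1.17). A region of that stretch annotated as intergenic and as no repeat, chrX:58004033-58004626, was at -2.84 (-5.05 to -1.74). The low values on chromosome X were thus not confined to HSAT4. Alpha satellite (ALR/Alpha), the main repeat of human centromeres, held 83004 reads in shTIP60-B and 152901 in shTIP60-C over 8 regions. Among the 60 repeat names with at least 20 regions, the medians of all but HSAT4 ran from -0.19 to 0.33 window-centred. Reads from copies of a repeat can be placed at more than one copy. How the aligner placed them is not given in the sources used here, and whether read placement or copy number moves with the difference was not tested.

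**Figure D2:**
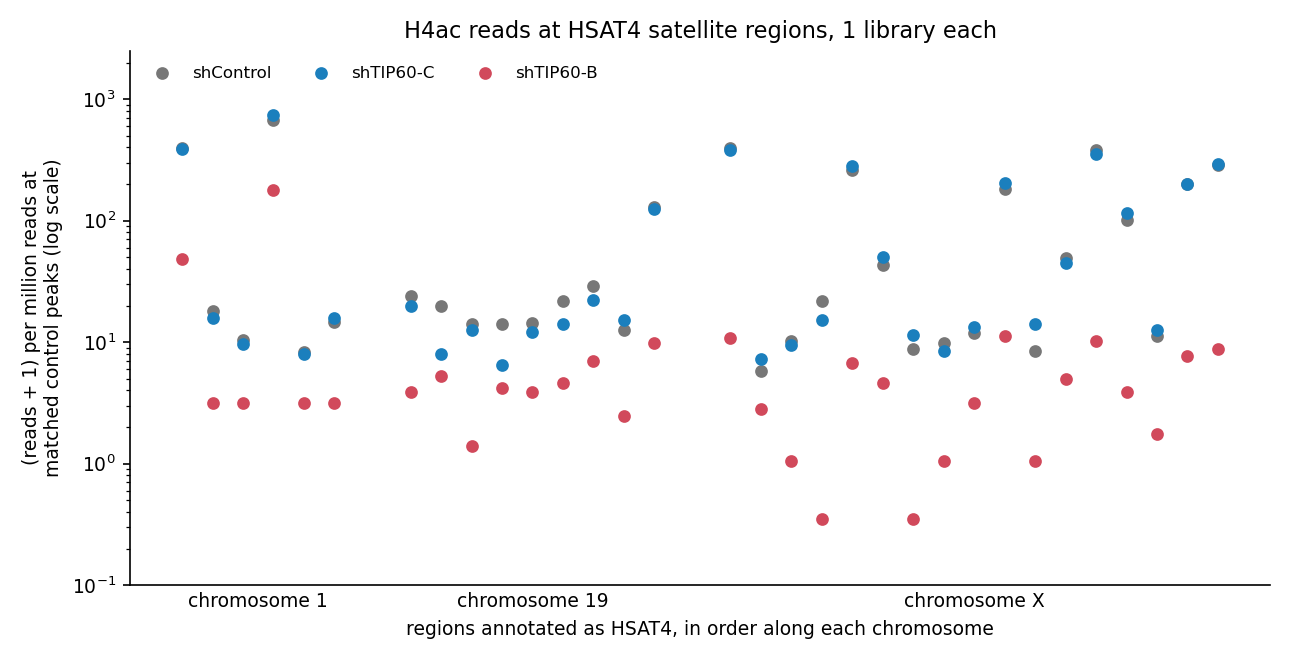
Reads plus 1, scaled by each library's total reads at matched control peaks, on a log axis, in each of the 3 H4ac libraries at the 32 HSAT4 regions in their order along chromosomes 1, 19 and X. The shTIP60-C points overlap those of shControl at most regions, and the shTIP60-B point lies below both at each of the 32.

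Whole chromosomes also differed. On the genome-centred scale the median region was at -0.58 on chromosome 20 (913 regions), -0.35 on chromosome 16, -0.20 on chromosome 1 and -0.13 on chromosome 7. It was at 0.30 on chromosome 10, 0.23 on chromosome 3, 0.17 on chromosome 14, 0.14 on chromosome 9 and 0.13 on chromosome 11. The other 14 of 23 chromosomes lay within 0.1 of 0. On chromosome 20 both kinds of region shared the shift, at -0.63 for promoter and -0.55 for distal regions, and 21.5% of regions were lower genome-centred against 4.82% window-centred. Against shControl the chromosome 20 median was -0.56 with shTIP60-B and 0.02 with shTIP60-C. Over all chromosomes the medians of shTIP60-C over shControl stayed between -0.06 and 0.09. Across 236 windows of 10 Mb the direct ratio ran from -0.71 to 0.44, with 22 windows at or below -0.3 and 14 at or above 0.3. Against shControl, 45 windows were beyond 0.3 in either direction with shTIP60-B and 0 with shTIP60-C. The sharpest step between neighbouring windows was on chromosome 19, from 0.26 to -0.15 at 30 Mb, followed by chromosome 5, from -0.29 to 0.11 at 10 Mb. Copy number is not measured in the files used here, and its part in these shifts was not tested.

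**Figure D3:**
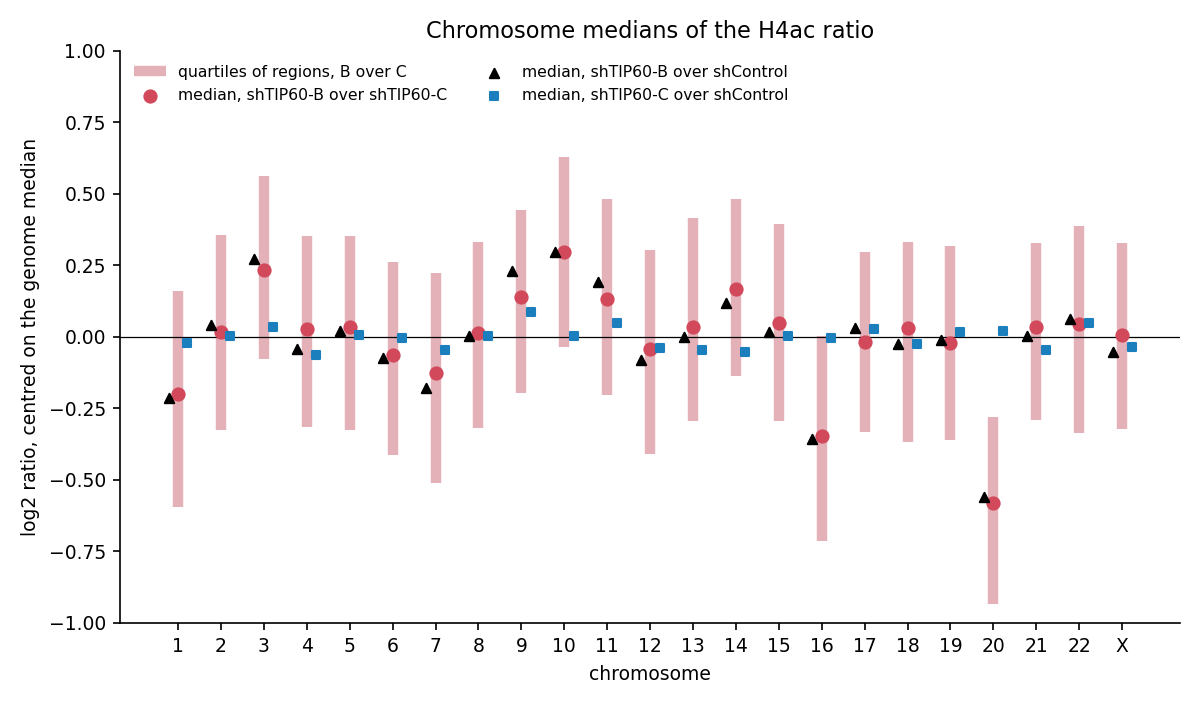
Median log2 ratio of regions by chromosome, centred on the genome median, for shTIP60-B over shTIP60-C (circles, with quartiles as bars), shTIP60-B over shControl (triangles) and shTIP60-C over shControl (squares). Chromosomes 20 and 16 lie lowest and 10 and 3 highest, where the triangles follow the circles and the squares stay near 0.

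At its own target gene the libraries were close. The KAT5 promoter, chr11:65478278-65480264, held 348 reads in shTIP60-B, 863 in shTIP60-C and 401 in shControl. The ratio was -0.20 (-0.39 to -0.02) and -0.07 (-0.26 to 0.11) genome-centred, so its counting interval includes 0 on only the genome-centred scale. Of the 17 NuA4 subunit genes measured, 0 passed the fold, and their median was -0.09 against -0.04 for all promoter genes. The scaffold EP400 lay lowest, with 13, 62 and 41 reads and a ratio of -0.94 (-2.01 to -0.14). TRRAP, the large adaptor subunit, had 95, 398 and 202 reads and a ratio of -0.53 (-0.88 to -0.21). MORF4L1, a chromodomain subunit, lay on the other side with 244, 443 and 285 reads, at 0.36 (0.12 to 0.58).

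The promoters lower in shTIP60-B included SRF, CNN2 and CRIP2, which had the most reads of those named. SRF encodes the serum response factor, which drives immediate early and cytoskeletal genes. Its promoter, chr6:43138925-43140275, held 54 reads in shTIP60-B, 394 in shTIP60-C and 237 in shControl, a fold of 2.96 below shTIP60-C at -1.57 (-2.03 to -1.18). CNN2, which encodes the actin-binding protein calponin 2, held 71, 629 and 414 reads at chr19:1025916-1027533, at -1.62 (-2.02 to -1.29). CRIP2, a LIM domain protein gene, had 28, 235 and 113 reads at chr14:105940277-105941875, at -1.94 (-2.60 to -1.41). At all 3 shTIP60-B stood below both other libraries relative to its total reads, and those lay close to each other.

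The other named lower promoters rested on fewer reads. PPFIBP2, a liprin family gene, had 2 reads in shTIP60-B, 92 in shTIP60-C and 30 in shControl, at -3.93 (-7.56 to -2.60). MVD, which encodes an enzyme of the mevalonate pathway to cholesterol, had 7, 98 and 46 reads, at -2.17 (-3.70 to -1.25). BATF, an AP-1 family transcription factor gene, had 13, 115 and 50 reads, at -1.94 (-2.99 to -1.20). These values place shTIP60-B far below the other libraries, but with wide intervals where its count is under 10. BBS2, of the ciliary BBSome, had 2, 58 and 24 reads, at -2.60 (-6.24 to -1.24). COL21A1, a collagen gene, had 4, 49 and 17 reads, at -2.32 (-4.55 to -1.17). LINC01605, a long non-coding RNA gene, had 0 reads in shTIP60-B, 72 in shTIP60-C and 32 in shControl. With the 0 set to 3 reads it was 9.99-fold lower, and the nearer bound of its interval was -2.99.

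The promoters higher in shTIP60-B differed in where shTIP60-C lay against shControl. At TOR4A, a torsin family gene, shTIP60-B had 262 reads, shTIP60-C 234 and shControl 87 at chr9:140171296-140172226, and the ratio was 1.40 (1.14 to 1.66). Here both lay above shControl, shTIP60-C at a log2 ratio of 0.54 and shTIP60-B at 1.93. FZD9, a Wnt receptor gene, had 225, 242 and 129 reads at chr7:72847071-72848586, at 1.36 (1.09 to 1.63). C2orf88 had 141, 117 and 85 reads, at 1.52 (1.16 to 1.89), with shTIP60-B at 1.07 and shTIP60-C at -0.42 against shControl. At FZD9 shTIP60-C lay near shControl, with a log2 ratio of 0.02, and shTIP60-B above it at 1.15.

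At the other 7 the shTIP60-C library lay below shControl, at log2 ratios from -1.49 to -1.01. PALM2, a paralemmin gene, had 57, 23 and 28 reads, a ratio of 2.36 (1.67 to 3.16), and a shTIP60-C log2 ratio to shControl of -1.15. COCH, which encodes the inner ear protein cochlin, had 61, 25 and 29 reads, at 2.27 (1.61 to 3.04). PSMC4, an ATPase subunit gene of the proteasome, had 41, 26 and 39 reads, at 1.82 (1.10 to 2.61), with shTIP60-C at -1.45 and shTIP60-B at 0.42 against shControl. The difference at PSMC4 was thus larger on the side of shTIP60-C. RIMKLB (35, 15 and 19 reads), SAMMSON (35, 18 and 28), NUDT12 (43, 29 and 37) and TMEM52 (43, 32 and 35) had ratios of 2.42, 2.16, 1.79 and 1.74. SAMMSON is a long non-coding RNA described in melanoma, and NUDT12 a nudix hydrolase gene.

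**Figure D4:**
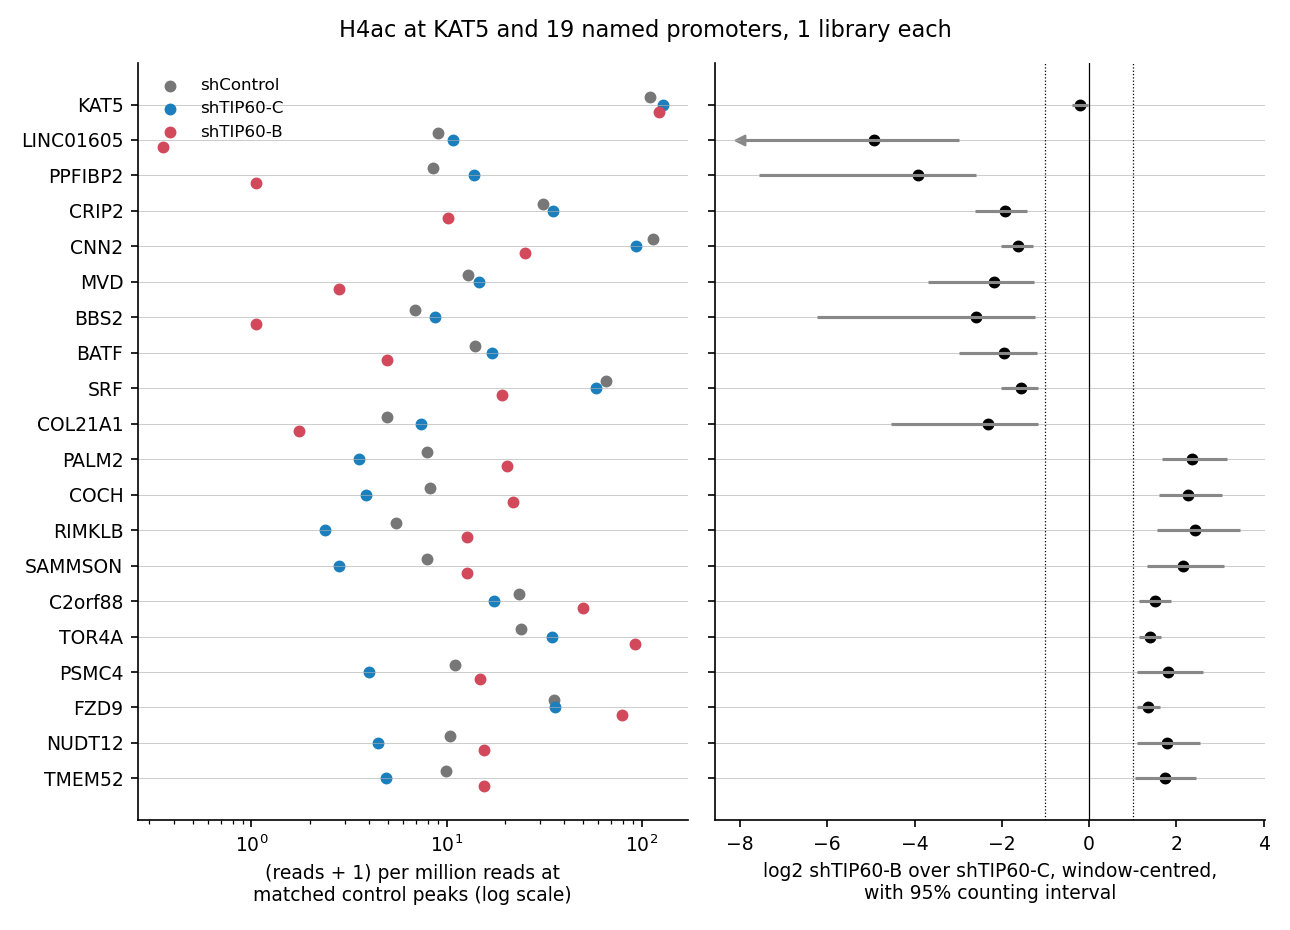
Left, reads plus 1, scaled by each library's total reads at matched control peaks, on a log axis, for KAT5 and the 19 other named promoters in the 3 H4ac libraries. Right, the window-centred log2 ratio of shTIP60-B over shTIP60-C with its 95% counting interval (an arrow where shTIP60-B has 0 reads), from -4.93 at LINC01605 to 2.42 at RIMKLB.

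Short promoter stretches are shown for the lower genes whose promoters hold a CArG box, the element bound by SRF, because SRF itself was among them. Promoters are 250 bases before to 50 after a start site, from RefSeq on GRCh38.p14, and capitals mark the element.
SRF: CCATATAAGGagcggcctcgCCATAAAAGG
CNN2: ctccaggCCTTATAAGGacatttg
NDE1: ataaaccCCTAAATAGGgactttc
CPD: ctggagcCCAAAAATGGcagatga
The SRF stretch is chr6:43171239-43171268 and holds 2 boxes, from 30 bases to 1 base before the start site. The box of CNN2 lies 89 to 80 bases before the start (stretch chr19:1026512-1026535), that of NDE1 54 to 45 (stretch chr16:15643321-15643344) and that of CPD 170 to 161 (stretch chr17:30380301-30380324). All are printed as the plus strand of GRCh38.p14.

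Searched on both strands, a CArG box was found in 1.29% of 35116 RefSeq promoters, and 7659 of the measured genes were matched by symbol. The match was not by position, so an element can lie at another start site than the one measured. Whether the CPD box lies in the region measured for CPD, chr17:28705900-28706557 on hg19, was not tested. The 120 matched genes with a box had a median ratio of -0.11 and 4 were lower (3.33%), against -0.05 and 2.33% of the 7539 without. The 4 are the genes printed above. NDE1, a centrosome protein gene, had 34, 245 and 151 reads in shTIP60-B, shTIP60-C and shControl, at -1.22 (-1.82 to -0.74). CPD, a carboxypeptidase gene, had 9, 75 and 34 reads, at -1.74 (-3.06 to -0.87). Most genes with a box did not differ by the fold, and 2 of the 120 were higher (1.67%, against 1.05% without). The AP-1 element TGANTCA, found in 7.71% of promoters, gave a median of 0.00 over 572 genes with 9 lower (1.57%, against 2.41% without it) and 9 higher (1.57%, against 1.02%). TGACGTCA, the element of CREB and ATF factors, was in 1.85% of promoters and gave -0.09 over 295 genes, with 7 lower (2.37%, against 2.35% without it) and 1 higher (0.339%, against 1.09%). A gene could hold several of these elements and was counted for each.

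The gene lists were read beside all promoter genes, whose median was -0.04 with quartiles of -0.31 and 0.22. Of 31 lists, 19 had a lower median and 12 a higher one. The 6 farthest from the middle, all lower in shTIP60-B, were interferon effectors (-0.31), interferon signalling (-0.29), epithelial junction and keratin genes (-0.29), immediate early genes (-0.28), replication-dependent histones (-0.28) and TGF-beta and SMAD genes (-0.28). All of these medians lie near the lower quartile of all genes, and few members of each list passed the fold.

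**Figure D5:**
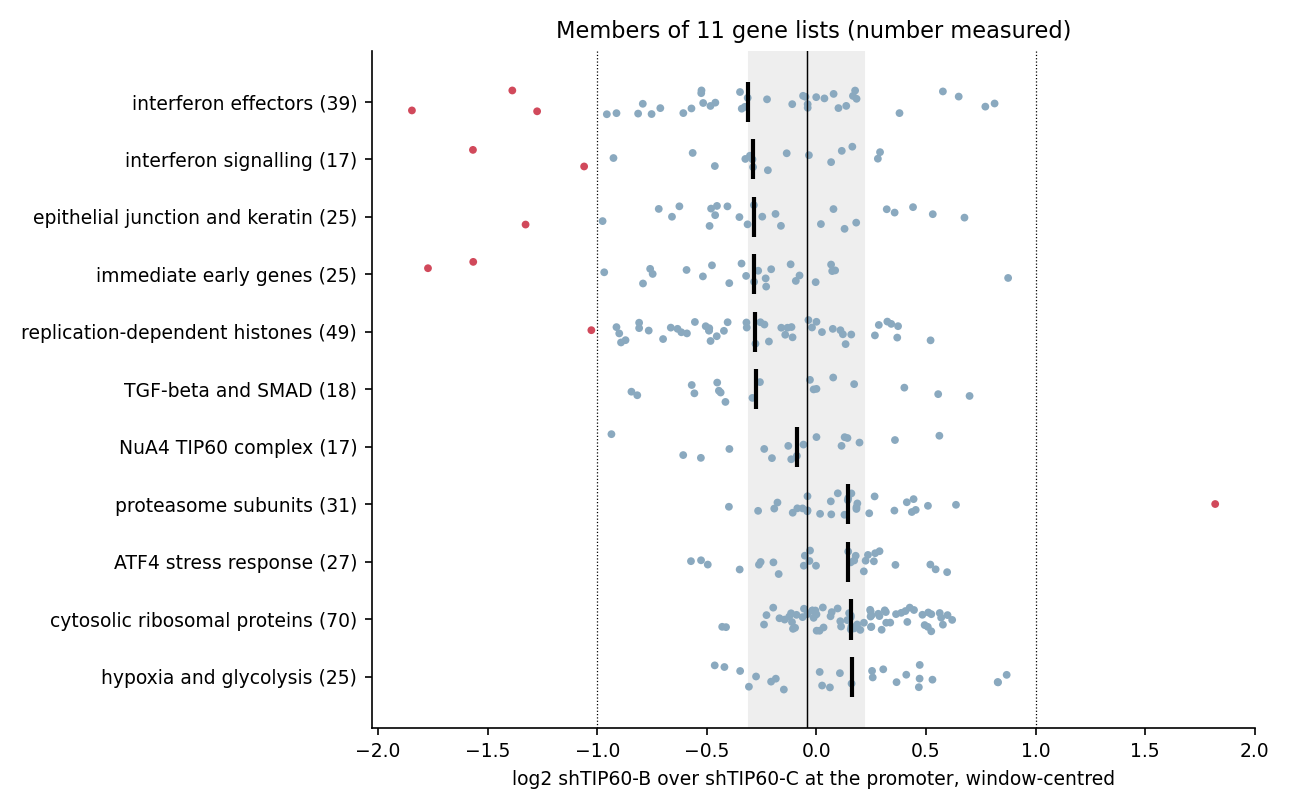
Window-centred log2 ratio of shTIP60-B over shTIP60-C at each measured promoter of 11 lists, with the list median as a bar, members past a fold of 2 in red, and the quartiles of all promoter genes in grey. The lower lists have a few members past the fold on the left, and cytosolic ribosomal proteins crowd between about -0.4 and 0.6 with 0 past it.

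Interferon genes act in antiviral defence: interferon receptors signal through JAK kinases to a complex that holds STAT2 and IRF9 and binds the promoters of effector genes. Among 17 signalling genes 2 were lower (11.8%) and 0 higher, against 2.38% and 1.22% of all promoter genes. Against shControl the median of this list was -0.30 with shTIP60-B and -0.10 with shTIP60-C. IRF9, the DNA-binding partner of that complex, held 39 reads in shTIP60-B, 248 in shTIP60-C and 202 in shControl, at -1.57 (-2.12 to -1.11). IRF7, a regulator of interferon genes, held 35, 152 and 123 reads, at -1.06 (-1.67 to -0.55), and was short of the fold genome-centred, at -0.85. Both regions are annotated at the end of a neighbouring transcript as well as near the start of the gene. STAT2, which joins IRF9 in it, had 64, 239 and 188 reads, at -0.46 (-0.90 to -0.08). IRF1, another factor of this family, had 58, 204 and 85 reads, at -0.56 (-1.03 to -0.16). Against shControl, shTIP60-C itself lay below at IRF9 (-0.59) and IRF7 (-0.58) and above at IRF1 (0.37). The receptors did not share the lower ratios to shTIP60-C, with IFNAR1 at 0.28 (-0.40 to 0.89) and IFNGR2 at 0.12 (-0.41 to 0.60).

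Among 39 effectors 3 were lower (7.69%) and 0 higher. Against shControl the median of this list was -0.26 with shTIP60-B and -0.16 with shTIP60-C. MX2, a dynamin-like antiviral GTPase, held 12, 111 and 63 reads, at -1.85 (-2.94 to -1.09). HERC6, a ubiquitin ligase, held 50, 313 and 189 reads at chr4:89299641-89300814, at -1.39 (-1.87 to -0.98). IFI27, a mitochondrial interferon-induced protein, held 99, 524 and 386 reads at chr14:94575826-94578146, at -1.27 (-1.61 to -0.97). Against shControl, shTIP60-C lay at -0.07 at MX2, -0.15 at HERC6 and -0.44 at IFI27. IFIT5, an RNA-binding effector, was just short of the fold, with 164, 596 and 329 reads at -0.96 (-1.22 to -0.71). Close relatives lay elsewhere. MX1 had 84, 192 and 129 reads, at 0.08 (-0.32 to 0.45), HERC5 52, 70 and 47, at 0.81 (0.26 to 1.34), and IFIT3 185, 308 and 216, at 0.17 (-0.11 to 0.43). The effector list thus spans both directions, from MX2 to HERC5.

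The interferon-stimulated element, searched as GAAA, any 2 bases and GAAA on both strands, lies in 3.57% of RefSeq promoters. Stretches are shown for IFI27, which was lower, IFIT5, which was just short of the fold, and IFIT3, which lay near 0.
IFI27: TTTCGGTTTCctgGAAAATGAAA
IFIT5: tattaagTTTCGGTTTCtgaagct
IFIT3: gattctgTTTCAGTTTCccctcaa
The IFI27 stretch, chr14:94110628-94110650 on GRCh38.p14, holds 2 matches, and the IFIT5 stretch, chr10:89414516-89414539, holds 1. All stretches are printed as the plus strand, so TTTC, any 2 bases and TTTC is a match on the minus strand. IFIT3 has 1 match at each of 2 RefSeq promoters, and the stretch printed is chr10:89332428-89332451. That stretch lies outside the region measured for IFIT3, chr10:91086476-91088556 on hg19. The other stretch, chr10:89327834-89327857 on GRCh38.p14, lies within it. The element did not separate the interferon genes. Of the 43 interferon genes matched to a promoter, the 23 with it had a median of -0.23 and 1 was lower, and the 20 without had -0.29 and 2 were lower. Over all matched genes, the 308 with the element had a median of -0.10 and 12 were lower (3.9%), against -0.05 and 2.29% of the rest. Of the 308, 5 were higher (1.62%, against 1.03% without), so both shares were above those of the rest.

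Immediate early genes are switched on by growth factors within minutes, in part through SRF. Of 25 measured, 2 were lower (8%) and 0 higher, and 20 lay below the median of all genes. FOSB, an AP-1 subunit, had 7, 61 and 36 reads, at -1.77 (-3.32 to -0.81), and SRF is the other. FOS, with 297, 1089 and 573 reads, was at -0.76 (-0.95 to -0.58), and EGR1, with 337, 966 and 526, at -0.28 (-0.47 to -0.11). JUN lay at 0.09 (-0.33 to 0.47) and IER5 at 0.87 (0.17 to 1.53), on the other side.

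Epithelial genes gave 1 lower member of 25 (4%, against 2.38% of all promoter genes), KRT8, a keratin of simple epithelium. It had 38 reads in shTIP60-B, 261 in shTIP60-C and 70 in shControl, at -1.33 (-1.89 to -0.86). Here shTIP60-C stood above the control, at a log2 ratio of 1.00, and shTIP60-B below it, at -0.51. SPINT1, an inhibitor of matriptase, had 35, 150 and 71 reads, at -0.98 (-1.58 to -0.47). EPCAM, the epithelial adhesion molecule, lay on the other side with 181, 274 and 156 reads, at 0.68 (0.39 to 0.95). ESRP1, a splicing regulator of epithelia, and JUP, a junction protein, were at -0.72 (-1.37 to -0.17) and -0.66 (-1.42 to -0.04).

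Replication-dependent histone genes gave 1 lower member of 49 (2.04%), near the 2.38% of all promoter genes. HIST2H2AB had 73, 503 and 274 reads, at -1.03 (-1.42 to -0.69), and -1.53 genome-centred, being on chromosome 1. HIST1H2AB (90, 418 and 263 reads), HIST1H4K (38, 177 and 106) and HIST1H2BM (51, 235 and 161) lay at -0.91, -0.90 and -0.89. These genes have near-identical copies, so the reads of single copies are uncertain. Against shControl the list's median was -0.69 with shTIP60-B and -0.20 with shTIP60-C. Of 18 TGF-beta and SMAD genes 0 passed. ID3 and ID1, inhibitors of helix-loop-helix factors, were at -0.84 (-1.73 to -0.16) and -0.57 (-1.48 to 0.12), and LTBP1 and TGIF1 at -0.82 (-1.95 to 0.03) and -0.56 (-1.04 to -0.13).

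The lists with the highest medians were hypoxia and glycolysis (0.16, 25 genes), cytosolic ribosomal proteins (0.16, 70 genes), the ATF4 stress response (0.14, 27 genes) and proteasome subunits (0.14, 31 genes). Only PSMC4 among their members was higher by the fold. BNIP3L, a mitophagy receptor, led the first of them with 205, 271 and 232 reads, at 0.87 (0.60 to 1.13), where shTIP60-C lay below shControl at -0.66. RPSA, a small-subunit protein gene, had 307, 400 and 221 reads, at 0.60 (0.38 to 0.82). SLC7A11, a cystine transporter of the ATF4 response, had 123, 192 and 122 reads, at 0.60 (0.25 to 0.93). In the other lists calls were few, beside the 2.38% lower and 1.22% higher of all promoter genes. EGFR and ERBB signalling had 2 of 28 lower (7.14%): ERBB2, with 25, 126 and 89 reads at -1.04 (-1.76 to -0.45), and the ubiquitin ligase gene CBL, with 18, 94 and 35 at -1.05 (-1.93 to -0.37). Cholesterol synthesis had 2 of 15 lower (13.3%), MVD and the sterol reductase gene HSD17B7, the latter with 8, 63 and 27 reads at -1.19 (-2.61 to -0.27). The YAP and TEAD list had TEAD2 lower, at -1.18 (-1.87 to -0.62), and F3, the tissue factor gene, higher, at 1.10 (0.52 to 1.69), of 22. Mitochondrial ribosomal protein genes had 1 lower and 2 higher of 61, MRPS31 at -1.02, MRPS27 at 1.07 and MRPL24 at 1.52. RRP12, a ribosome assembly gene, was the 1 lower of 29 growth genes, at -1.05. BUB1B, a mitotic checkpoint kinase gene, was the 1 higher of 32 mitotic genes, with 57, 48 and 39 reads at 1.34 (0.76 to 1.93).

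Away from promoters, the compared region farthest above 0 by its interval lay in the first intron of ERGIC1, a gene of transport between endoplasmic reticulum and Golgi. At chr5:172285204-172286834 it held 547 reads in shTIP60-B, 135 in shTIP60-C and 102 in shControl, a 9.77-fold difference at 3.29 (3.02 to 3.58). An intergenic region nearest to ALCAM, an adhesion molecule gene, had 131, 44 and 35 reads, at 2.56 (2.08 to 3.11). A region in PI4K2B, a lipid kinase gene, had 171, 91 and 80, at 2.14 (1.77 to 2.53), and lies in an SVA repeat. A region nearest to BCL2L10, of the BCL2 family, had 316, 155 and 112 reads, at 2.02 (1.75 to 2.31). Against shControl, shTIP60-B lay above at these 4, by 1.44 to 2.76 on the log2 scale, and shTIP60-C below, at -0.41 to -0.70.

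Outside HSAT4, the lowest distal regions, chosen after their values were seen, often had no read in shTIP60-B. The region nearest to NSUN7 had 0, 101 and 68 reads, and that nearest to FAM132A 0, 69 and 29. With a count of 3 in place of 0, these were 14.7-fold and 9.17-fold lower. The nearer bounds of their counting intervals were -3.55 and -2.86. A region nearest to KYNU, the kynureninase gene of tryptophan breakdown, had 6, 224 and 101 reads at chr2:143630308-143632109, at -3.77 (-5.45 to -2.84). A region in the first intron of MGMT, a DNA repair gene, had 4, 135 and 63 reads, at -3.78 (-5.98 to -2.70). SNX19 (0, 59 and 23 reads) and IGF1 (0, 59 and 29) were 8.36-fold and 8.24-fold lower by the same count of 3. The nearer bounds of their intervals were -2.72 and -2.70.

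In places neighbouring regions shared a direction. There were 11 runs of at least 4 consecutive regions past the fold in 1 direction, 10 lower and 1 higher in shTIP60-B. After the X satellite stretch, the longest had 7 regions at chr16:54320796-54971230 and covered IRX3, CRNDE and IRX5, with 74, 674 and 392 reads in all and a median of -1.40. IRX3 and IRX5 encode Iroquois homeobox factors, and CRNDE a long RNA between them. The IRX3 promoter had 11, 94 and 68 reads, at -1.28 (-2.45 to -0.49), and the CRNDE promoter 24, 226 and 134, at -1.48 (-2.21 to -0.92). A run of 6 on chromosome 2 covered KYNU and GTDC1 (40, 587 and 314 reads, median -2.09). A run of 5 lay at NEDD9, a scaffold gene of focal adhesions (59, 511 and 226 reads, median -1.49), and 1 of 5 at RAPGEF5 and STEAP1B (47, 329 and 195, median -1.61). The only run in the other direction lay at LAYN, a hyaluronan receptor gene, with 570, 547 and 289 reads over 4 regions and a median of 1.16.

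Counted by nearest gene, 34 loci had at least 3 lower regions and none higher, and 10 had at least 3 higher and none lower. ZXDA had 20 lower of 21, NEDD9 6 of 9, CYP1B1 4 of 6 and KYNU 4 of 4. At CYP1B1, a cytochrome P450 gene, the promoter lay at -0.23 with 142, 351 and 202 reads, while an intergenic region on its upstream side (chr2:38319066-38320567) was at -1.85 with 13, 105 and 61. Of the 10 higher loci, those named by the rule were ANK3 (3 higher of 14 regions), AGPAT4 (3 of 10), SVIL (3 of 10), LAYN (3 of 3) and LINC01060 (3 of 5). At LINC01060, a long non-coding RNA gene, the 3 lie beside each other, and the farthest had 125, 65 and 60 reads, at 2.10. The LAYN regions lay between 1.10 and 1.58.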

How the data were processed

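H4ac chromatin from H1975 cells was sequenced as 75 bp paired reads, per the labels' protocols. Bowtie2, MACS version 1.4.2 and hg19 are named per the submitters' processing notes. Both deposited tables carry a HOMER annotation command per the file headers, but neither aligner settings nor versions of Bowtie2 and HOMER are stated there. The read counts per region are the authors' whole numbers as deposited, not normalised. M, the authors' deposited log2 ratio of knockdown over control, entered 1 alternative.

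Control peaks were matched by identical chromosome, start and end. The ratio is log2((reads B + 1)/(reads C + 1)) minus its median over regions with at least 50 reads in both libraries together, then minus the median of its 10 Mb window where that held at least 50 regions. The pseudocount of 1 understates changes at low counts. Where a gene had several promoter regions (within 1 kb), the one with the most reads stood for it. For a fold, a count of 0 was set to 3 reads, which leaves out counting error in the other library. Intervals are Clopper-Pearson at 95%. The steps were tested on simulated data. Python 3.11.15, numpy 2.4.6, pandas 2.3.3, scipy 1.17.1 and matplotlib 3.10.9 were used.

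Named are KAT5, the 10 promoter genes and 4 distal regions each way whose interval lies farthest from 0, 4 members of the 6 lists farthest from all genes, and the 5 loci with the most regions each way (at least 3, none opposite). Genes without a symbol, LOC entries, antisense and small RNAs were passed over. Some genes the rule picks are not reported here. Other members of those lists, relatives of named genes, the genes named for the higher lists, genes past the fold in other lists, CPD and NDE1, and the runs of regions were chosen after their values were seen. The same holds for HSAT4, and the sequence elements were not among the planned results. The 31 gene lists hold 1017 entries, of which 809 were measured. Members and lists were chosen with earlier results of these data known, so no set test was made. Samples were grouped by their titles, 1 library per group, and the titles do not say whether a group is 1 culture.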

Additional observations from a re-analysis of the deposited data

How the results depend on the processing

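Ratios were recomputed under 21 other settings. Counts of lower and higher regions moved most with the threshold: 4093 and 3877 at a fold of 1.5, and 484 and 93 at a fold of 3. Counts of promoter genes were 1040 and 651, and 39 and 10. With at least 100 reads the regions were 746 and 441 and the promoter genes 155 and 59. With at least 200 reads they were 284 and 149, and 71 and 32. These settings change the threshold or the number of regions compared. The lower promoter genes numbered 385 centred on the genome median alone and 158 with a pseudocount of 5, and the cause was not tested. With the difference of the authors' M, an alternative added after the data were seen, they numbered 371. The higher ones then numbered 133, so the lower share rose. Also added after the data were seen, leaving out HSAT4 regions gave 1528 lower and 994 higher regions. The HSAT4 median, -2.93, ran from -4.44 (at least 200 reads) to -2.34. Chromosome medians moved little: chromosome 20 stayed between -0.63 and -0.55, and chromosome 10 between 0.24 and 0.32. List medians crossed 0 in at least 1 setting for 14 of 31 lists, none of them the 6 lowest. Of 28 promoter genes that the naming rule picks and that passed the fold, 26 stayed past it in every setting that measured them, and 0 changed direction. HIST2H2AB fell short at windows of 5 and 20 Mb and with at least 200 reads, and IRF7 with the genome median alone and with a pseudocount of 5. The median interval half-width of a region was 0.50 (log2), from 0.80 at distal regions with 50 to 99 reads to 0.17 at those with at least 1000. This width covers counting error only. It does not set the smallest difference between hairpins that could be detected. Only 1 library stands on each side, so differences between cultures or immunoprecipitations cannot be told apart from those between hairpins. No paired analysis was possible because each group has 1 library and no test was made.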
